A study of Mus musculus with 2 samples.

Results

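A group of 10 genes that set how easily the myometrium fires and contracts were followed across the cells of the mouse uterus. They are the oxytocin receptor Oxtr, the connexin Gja1, the potassium channel subunits Kcnma1 and Kcnmb1, the calcium channel Cacna1c, the store genes Itpr1, Ryr2, Pln and Atp2a2, and the calcium pump Atp2b4. The members were taken by gene symbol, and all 10 were found among the 32285 genes of the count tables. The rule uses names and no measured value, and 9 of the 10 reached 10 CPM (the unit is explained below) in smooth muscle-like cells of at least 1 library.

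The myometrium is the smooth muscle wall of the uterus, and its contractions are driven by action potentials that carry calcium into the cell. Oxytocin acts on a Gq-coupled receptor, which raises inositol trisphosphate and releases calcium from the sarcoplasmic reticulum, while gap junctions spread the excitation from cell to cell. Potassium channels repolarise the membrane and damp firing, and pumps return calcium to the store or out of the cell.

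The data were single-cell RNA profiles of whole uterus from female C57BL/6J mice aged 6 months, digested with collagenase and captured in droplets with a kit that reads the 3′ end of transcripts. There were 2 libraries, each a pool of 3 mice. The library labelled control came from Prickle1 f/f mice, which carry floxed alleles of the planar cell polarity gene Prickle1. The library labelled cKO (conditional knockout) came from Prickle1 f/f MiC mice. Both groups thus share the floxed alleles. The labels spell out neither MiC nor the floxed exons, and they give the genotype of both libraries as wild-type. With 1 library per group there was no replicate and no test, and differences between mice, preparations and genotypes cannot be told apart. Levels are given as UMIs (unique molecular identifiers, each a counted molecule) and as CPM, the member's UMIs scaled so that all genes of the same cells sum to 1e6. Ranges in parentheses are exact intervals at 95% for the counting error alone.

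The libraries held 3490 and 3586 cells with median depths of 4953 and 4903 UMIs, in the order control and cKO, and shared 6 cell barcodes. Doublets remained, since the doublet caller marked 15 of the 7076 cells (0.212%) and so had not worked. Prickle1 itself was not lower under the cKO label: smooth muscle-like cells held 14 UMIs (14.9 CPM) in the control-labelled library and 51 UMIs (24.3 CPM) in the cKO-labelled library, a ratio of 1.63 (0.889 to 3.19). Fibroblast-like cells held 42 and 144 UMIs (4.37 and 8.94 CPM), a ratio of 2.04 (1.44 to 2.96). Over all cells, whose make-up differed, it was 96 and 265 UMIs, a ratio of 3.53 (2.78 to 4.51). Cluster 13 of the muscle cells, described below, went the other way with 5 and 2 UMIs, a ratio of 0.306 (0.0291 to 1.87). Were the labels exchanged, every ratio between the libraries given here would be inverted. Since the deleted part is not known and reads come from the 3′ end, this need not check the deletion. The libraries also differed in make-up, with 37.6% and 3.04% of cells epithelium-like and 4.53% and 8.90% in clusters that stayed unnamed.

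Smooth muscle-like cells numbered 312 in the control-labelled library and 682 in the cKO-labelled library, in 2 clusters. In both clusters and both libraries all 7 smooth muscle markers were detected. Cluster 13 (224 and 353 cells) was led by the contractile genes Actg2, Cnn1, Myh11 and Acta2 and was shallow, with a median of 1413 UMIs. Cluster 22 (88 and 329 cells, median 4202 UMIs) was led by Cacnb2, Prune2, Gata6, Carmn, Myh11 and Jph2, with Cacna1c itself among its 10 leading genes. Cluster 22 supplied 53.7% of the class's UMIs in the control-labelled library and 72.9% in the cKO-labelled library, so the class level is weighted differently in the 2 libraries, and values per cluster are given beside it. The 8 pericyte markers summed to 89.3 and 92.8 CPM in the class, with Ndufa4l2, Higd1b and Cox4i2 at 0 and the other 5 detected in both libraries, Mcam the most (58 and 136 UMIs). Their sum was 135 and 115 CPM in cluster 22. Myometrial and vascular smooth muscle were not separated here.

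In the mouse genome (build GRCm38, GENCODE vM21 annotation), Oxtr lies on chromosome 6 from 112473683 to 112489943 on the minus strand, and Gja1 on chromosome 10 from 56377330 to 56402513 on the plus strand. Kcnmb1 lies on chromosome 11 from 33963013 to 33973641 and Pln on chromosome 10 from 53337667 to 53345987, both on the plus strand. No gene of the count tables overlaps a member on its own strand. On the opposite strand Kcnip1 overlaps Kcnmb1, Dcp1b overlaps Cacna1c, and Cep85l and Gm47644 overlap Pln. Likewise 4930519K11Rik and Gm29626 overlap Kcnma1, and Gm44040 overlaps Itpr1. The strand setting of the counting is not given in the sources used here.

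Promoter sequence is shown for 4 members chosen by the distributions described below. Oxtr and Gja1 were in muscle and stroma, Gja1 also in other classes, and Kcnmb1 and Pln were mostly in muscle. RefSeq start sites (GRCm38.p6) were found for 8 of the 10 members, in 10 windows of 250 bases before the start. The bases printed lie upstream of both the RefSeq and the GENCODE start, 5′ to 3′ on the gene's strand. Capitals mark the motifs searched on both strands: the E-box (CANNTG), the AP-1 site (TGANTCA), the Sp1 box (GGGCGG), the TATA box (TATAAA) and the CArG box. Only part of each window is printed, and motifs in the rest are not shown. These are E-boxes from base -71 and -43 and an Sp1 box from -49 of the RefSeq start for Oxtr, and a TATA box from -219 for Pln.
Oxtr, chr6:112489944-112490075, minus strand: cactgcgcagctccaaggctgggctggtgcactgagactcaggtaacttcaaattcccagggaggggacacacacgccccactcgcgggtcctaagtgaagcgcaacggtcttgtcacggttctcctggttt
Gja1, chr10:56377150-56377299, plus strand: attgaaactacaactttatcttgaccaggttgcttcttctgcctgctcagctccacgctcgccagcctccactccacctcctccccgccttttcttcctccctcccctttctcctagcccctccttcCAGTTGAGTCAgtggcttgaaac
Kcnmb1, chr11:33962863-33963012, plus strand: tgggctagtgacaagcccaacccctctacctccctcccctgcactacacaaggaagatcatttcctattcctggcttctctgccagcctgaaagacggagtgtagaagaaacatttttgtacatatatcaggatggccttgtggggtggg
Pln, chr10:53337517-53337666, plus strand: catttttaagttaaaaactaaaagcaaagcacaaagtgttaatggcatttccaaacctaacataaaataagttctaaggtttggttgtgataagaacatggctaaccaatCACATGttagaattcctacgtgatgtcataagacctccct
In the Gja1 window an E-box overlaps an AP-1 site, which is the binding site of Fos and Jun proteins. AP-1 sites were found for 1 of the 8 members and stand in 6.75% of all 32851 promoter windows of this length. E-boxes were found for 6 members and stand in 66.2% of windows, and the Sp1 box was found for 3 members and stands in 32.7%. The CArG box, the binding site of serum response factor, was found in none of the members' windows and stands in 1.47% of all windows, which says only that these letters are absent there.

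**Figure D1:**
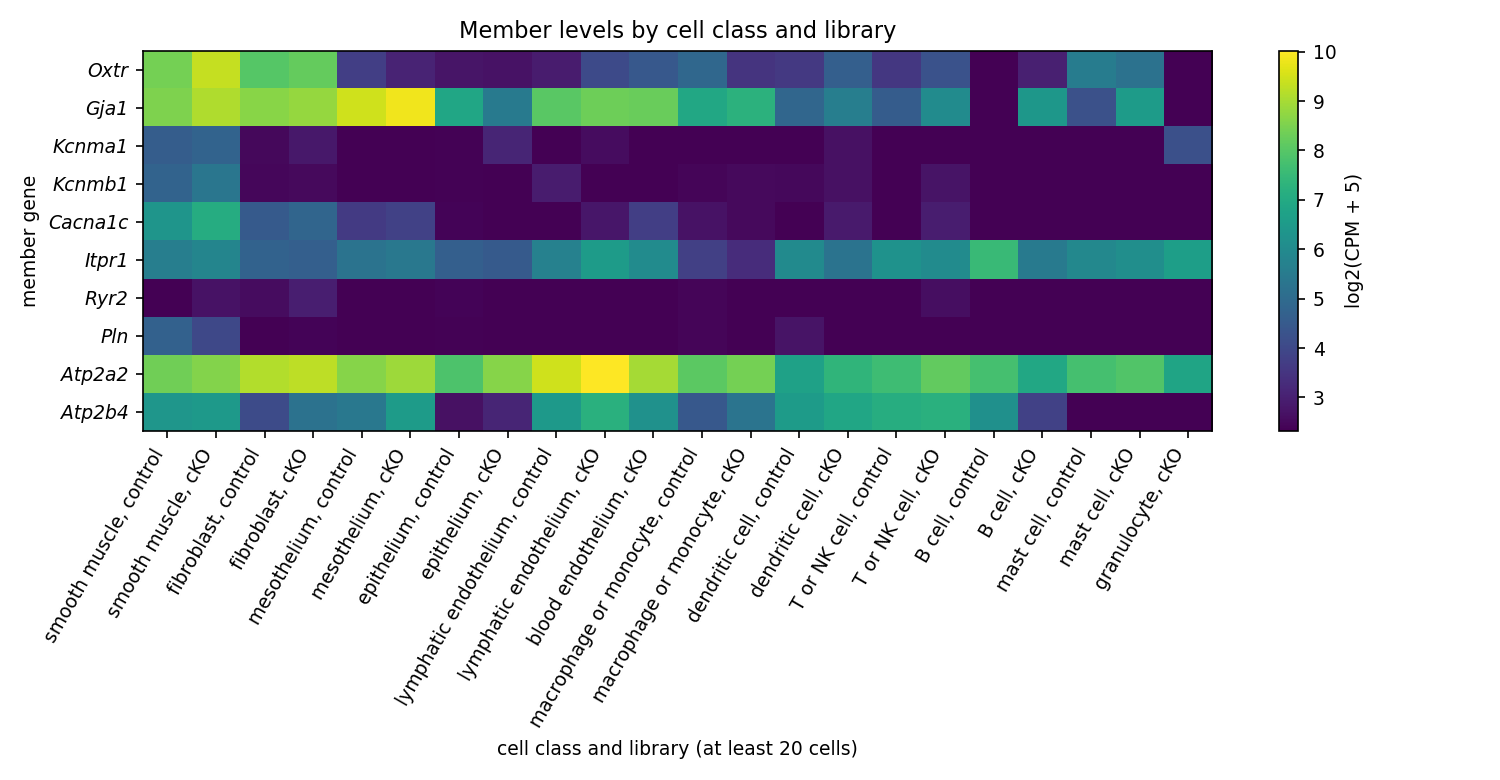
Level of each member (rows) in each cell class and library with at least 20 cells (columns), as log2(CPM + 5) in colour. Oxtr and Cacna1c are bright in muscle and fibroblast-like columns, Kcnmb1 and Pln in smooth muscle-like cells, and Atp2a2 in nearly every column; the Kcnma1 value of granulocytes rests on 1 UMI.

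The members fell into 3 distributions. Kcnma1, Kcnmb1 and Pln were concentrated in smooth muscle-like cells, which held 2.51% and 7.16% of the UMIs of cells in the 2 libraries but 66.7% and 51.6% of the Kcnma1 UMIs, 67.7% and 78.9% of the Kcnmb1 UMIs and 74.1% and 85.2% of the Pln UMIs. Oxtr, Cacna1c and Gja1 were shared between muscle and stroma. Gja1 was also high in mesothelium-like cells, and epithelium-like cells held 2109 of its 7475 UMIs in the control-labelled library. Itpr1, Atp2a2 and Atp2b4 were spread over many classes, and Ryr2 was nearly absent from muscle. These patterns are descriptions of clusters formed from the same cells, although the members themselves were kept out of the genes used for clustering.

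Oxtr, the receptor through which oxytocin contracts the uterus, was counted 312 times in smooth muscle-like cells of the control-labelled library (332 CPM, 296 to 371) and 1361 times in the cKO-labelled library (648 CPM, 614 to 683). The level was 1.95 times as high in the cKO-labelled library (1.72 to 2.21), and the same direction was seen in each cluster. In cluster 13 Oxtr was at 276 CPM (120 UMIs) and 434 CPM (247 UMIs), and in cluster 22 at 380 CPM (192 UMIs) and 727 CPM (1114 UMIs). The counting intervals of the libraries did not overlap in either cluster.

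The share of smooth muscle-like cells with an Oxtr UMI was 34.9% and 50.4%, at median depths of 1882 and 2021.5 UMIs. When every cell was thinned to 1000 UMIs, the share was 20.5% (16.2 to 25.4) in the control-labelled library and 31.7% (28.2 to 35.3) in the cKO-labelled library. T or NK cell-like cells, which should lack the receptor, had an Oxtr UMI in 1.51% and 2.86% of cells at greater median depths of 4083 and 3552 UMIs. The muscle shares lay well above that background.

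Fibroblast-like cells carried most of the Oxtr counts of the tissue, 84.1% of UMIs in the control-labelled library and 75.1% in the cKO-labelled library. Within this class the receptor divided the clusters. It was high in cluster 5, led by Thbs2, Pdgfra and Eln (407 and 443 CPM), and in the shallow cluster 6 (319 and 333 CPM). In the control-labelled library the level of cluster 5 lay above the interval of muscle (332 CPM, 296 to 371) and that of cluster 6 inside it. In the cKO-labelled library both levels were below the 648 CPM of the muscle class and the 727 CPM of its cluster 22. Muscle cluster 13 was at 434 CPM there, beside 443 CPM in cluster 5 and 333 CPM in cluster 6. Muscle clusters 13 and 22 of the control-labelled library were at 276 and 380 CPM. Oxtr was also high in cluster 24, led by Dio2, A2m and Aldh1a2 (464 CPM in the cKO-labelled library), which drew 93.7% of its cells from that library. It was low in cluster 7, led by Scara5 and Clec3b (46.2 and 95.3 CPM), and in cluster 8, led by Cxcl5 and Ptx3 (96.0 and 117 CPM). Cluster 12 was low as well (77.1 and 33.4 CPM, from 15 and 18 UMIs). The intervals of cluster 5 did not overlap those of clusters 7 or 8 in either library.

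**Figure D2:**
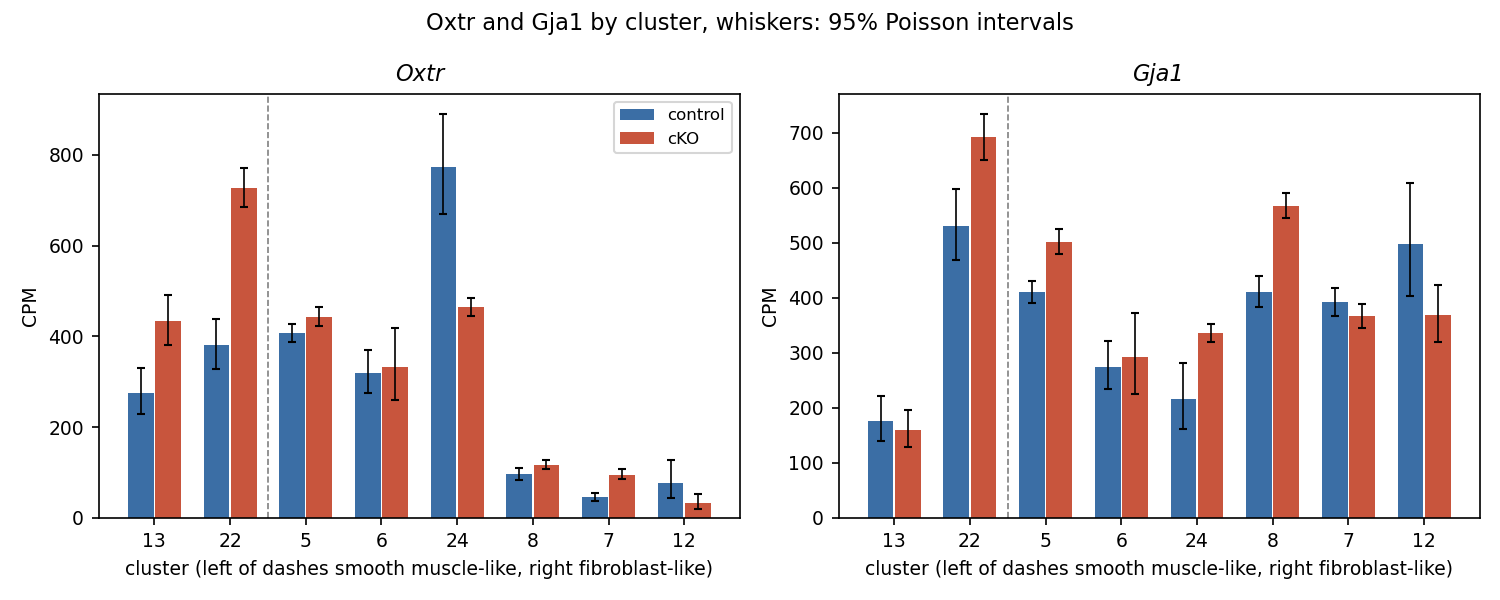
Oxtr (left) and Gja1 (right) in CPM in the smooth muscle-like clusters 13 and 22 and the fibroblast-like clusters, for the control-labelled (blue) and cKO-labelled (red) libraries, with 95% Poisson intervals as whiskers. Among fibroblast-like clusters Oxtr is highest in 5, 6 and 24, and in the cKO-labelled library these lie below muscle cluster 22, whereas Gja1 is spread more evenly over the stroma; the control bar of cluster 24 rests on 15 cells.

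Gja1 encodes connexin 43, the main gap junction protein of the labouring myometrium. Smooth muscle-like cells held 345 UMIs (367 CPM, 329 to 408) in the control-labelled library and 1151 UMIs (548 CPM, 516 to 580) in the cKO-labelled library, a ratio of 1.49 (1.32 to 1.69). The clusters differed from one another more than the libraries did. In cluster 13 the values were 177 and 160 CPM, with overlapping intervals, and in cluster 22 they were 531 and 692 CPM, with intervals that did not overlap. Cluster 22 was thus 3.00 times (2.32 to 3.92) as high as cluster 13 in the control-labelled library and 4.33 times (3.49 to 5.42) in the cKO-labelled library. The mean of the log2 ratios within clusters was 0.12, against 0.57 for the class.

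Gja1 was not highest in muscle. Mesothelium-like cells, the lining of the outer surface, had the highest level in both libraries (704 and 914 CPM), and fibroblast-like cells had 395 and 439 CPM. In the control-labelled library the fibroblast-like and smooth muscle-like levels did not differ beyond counting error. Lymphatic endothelium-like cells followed with 261 and 313 CPM.

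Kcnma1 and Kcnmb1 encode the pore and the smooth muscle beta subunit of the large-conductance calcium-activated potassium channel, which hyperpolarises the membrane when calcium rises. Kcnma1 was sparse, with 18 UMIs (19.1 CPM, 11.3 to 30.3) and 47 UMIs (22.4 CPM, 16.4 to 29.7) in smooth muscle-like cells. A difference between libraries was not detectable at this depth (ratio 1.17, 0.666 to 2.14). Among the cells with at least 1% of UMIs on smooth muscle markers its log2 ratio was -1.64. Even so the level in the class was far above that in all other cells, which was 0.246 and 1.61 CPM.

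Kcnmb1 was counted 21 times (22.3 CPM, 13.8 to 34.1) in the control-labelled library and 75 times (35.7 CPM, 28.1 to 44.7) in the cKO-labelled library. The ratio of 1.60 had an interval that included 1 (0.974 to 2.73), and its log2 value of 0.57 became 1.46 in thinned cells and 0.25 in cells with at least 2000 UMIs. The beta subunit belonged mainly to the contractile cluster 13, with 41.3 CPM (18 UMIs) and 80.8 CPM (46 UMIs) there, a ratio of 1.95 (1.11 to 3.58). In cluster 22 it was at 5.94 CPM (3 UMIs) and 18.9 CPM (29 UMIs), a ratio of 3.19 (0.987 to 16.3). The 2 subunits therefore leaned towards different muscle clusters: Kcnmb1 in cluster 22 was 0.144 and 0.234 times its level in cluster 13, and Kcnma1 was 2.24 and 3.12 times. For Kcnma1 the interval included 1 in the control-labelled library (0.750 to 8.03) and rested on 5 UMIs in cluster 13 of each library.

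Cacna1c, the pore of the L-type channel that carries the calcium current of the action potential, was counted 71 times (75.5 CPM, 59.0 to 95.2) and 273 times (130 CPM, 115 to 146). The level in the class was 1.72 times as high in the cKO-labelled library (1.32 to 2.27). Within clusters the libraries were closer, at 29.9 and 35.1 CPM in cluster 13 and 115 and 165 CPM in cluster 22. The ratio was 1.18 (0.557 to 2.57) in cluster 13 and 1.44 (1.08 to 1.95) in cluster 22, and neither passed 1.5-fold. With every cell thinned to 1000 UMIs, so that each cell counts alike, the log2 ratio of the class was 0.19 in place of 0.74. Cluster 22 exceeded cluster 13 by 3.85 times (2.08 to 7.65) and 4.70 times (2.98 to 7.83). Fibroblast-like cells had 17.6 and 23.7 CPM, the next level below muscle.

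Itpr1, the inositol trisphosphate receptor that releases stored calcium after Gq signalling, had 41 UMIs (43.6 CPM) in smooth muscle-like cells of the control-labelled library and 109 UMIs (51.9 CPM) in the cKO-labelled library, a ratio of 1.19 (0.824 to 1.75). Cluster 13 had 18.4 and 40.4 CPM (8 and 23 UMIs) and cluster 22 had 65.3 and 56.1 CPM (33 and 86 UMIs). Both ratio intervals included 1 (0.949 to 5.68 and 0.569 to 1.32). Muscle was 6th in the order of classes in both libraries. T or NK cell-like cells were at 70.1 and 60.1 CPM, with intervals that overlapped those of muscle, and macrophage or monocyte-like cells were lowest at 8.76 and 4.82 CPM. As for single classes, the highest class was B cell-like in the control-labelled library (179 CPM from 24 UMIs), and that class had 39.3 CPM from 13 UMIs in the cKO-labelled library.

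Ryr2 encodes the ryanodine receptor of the heart, which opens in response to calcium. It was nearly absent from muscle, with 0 UMIs in 940376 in the control-labelled library, which allows up to 3.19 CPM when 3 UMIs are taken as the limit of a count of 0, and 3 UMIs (1.43 CPM) in the cKO-labelled library. Most Ryr2 UMIs were in fibroblast-like cells, 9 of 16 and 46 of 51, and 41 of the latter were in cluster 24 (9.01 CPM).

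Atp2a2 encodes SERCA2, the pump that refills the sarcoplasmic reticulum, and Pln encodes phospholamban, which inhibits that pump. Atp2a2 had 305 UMIs (324 CPM, 289 to 363) and 804 UMIs (383 CPM) in smooth muscle-like cells, a ratio of 1.18 (1.03 to 1.35). Within clusters the ratios were 1.10 and 1.01, with intervals that included 1. Cluster 22 held more Atp2a2 than cluster 13 in both libraries, by 2.42 times (1.87 to 3.17) and 2.23 times (1.82 to 2.74). The pump was not particular to muscle: lymphatic endothelium-like cells had the highest level (694 and 1032 CPM), and fibroblast-like cells had 560 and 602 CPM.

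Pln was the member with a lower level in the cKO-labelled library. It had 20 UMIs (21.3 CPM, 13 to 32.8) in the control-labelled library and 23 UMIs (10.9 CPM, 6.94 to 16.4) in the cKO-labelled library, a ratio of 0.515 (0.27 to 0.988). The counts came mostly from the contractile cluster 13, with 41.3 CPM (18 UMIs) and 24.6 CPM (14 UMIs), where the ratio of 0.595 had an interval that included 1 (0.274 to 1.27). Cluster 22 had 2 and 9 UMIs (3.96 and 5.87 CPM). Cluster 13 supplied 46.3% and 27.1% of the class's UMIs, and the mean of the log2 ratios within clusters was -0.18 against -0.72 for the class. Within cluster 13 a difference was not detectable at this depth.

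Atp2b4 encodes a plasma membrane calcium pump that extrudes calcium. Smooth muscle-like cells had 73 UMIs (77.6 CPM, 60.8 to 97.6) and 175 UMIs (83.3 CPM), a ratio of 1.07 (0.812 to 1.43), and the ratio intervals included 1 in cluster 13 (0.755 to 1.96) and in cluster 22 (0.692 to 1.44). Levels were higher in T or NK cell-like cells (135 and 141 CPM), most of all in the Trdc-led cluster 11 (201 and 184 CPM). Lymphatic endothelium-like cells had 82.0 and 142 CPM and dendritic cell-like cells 87.8 and 113 CPM.

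**Figure D3:**
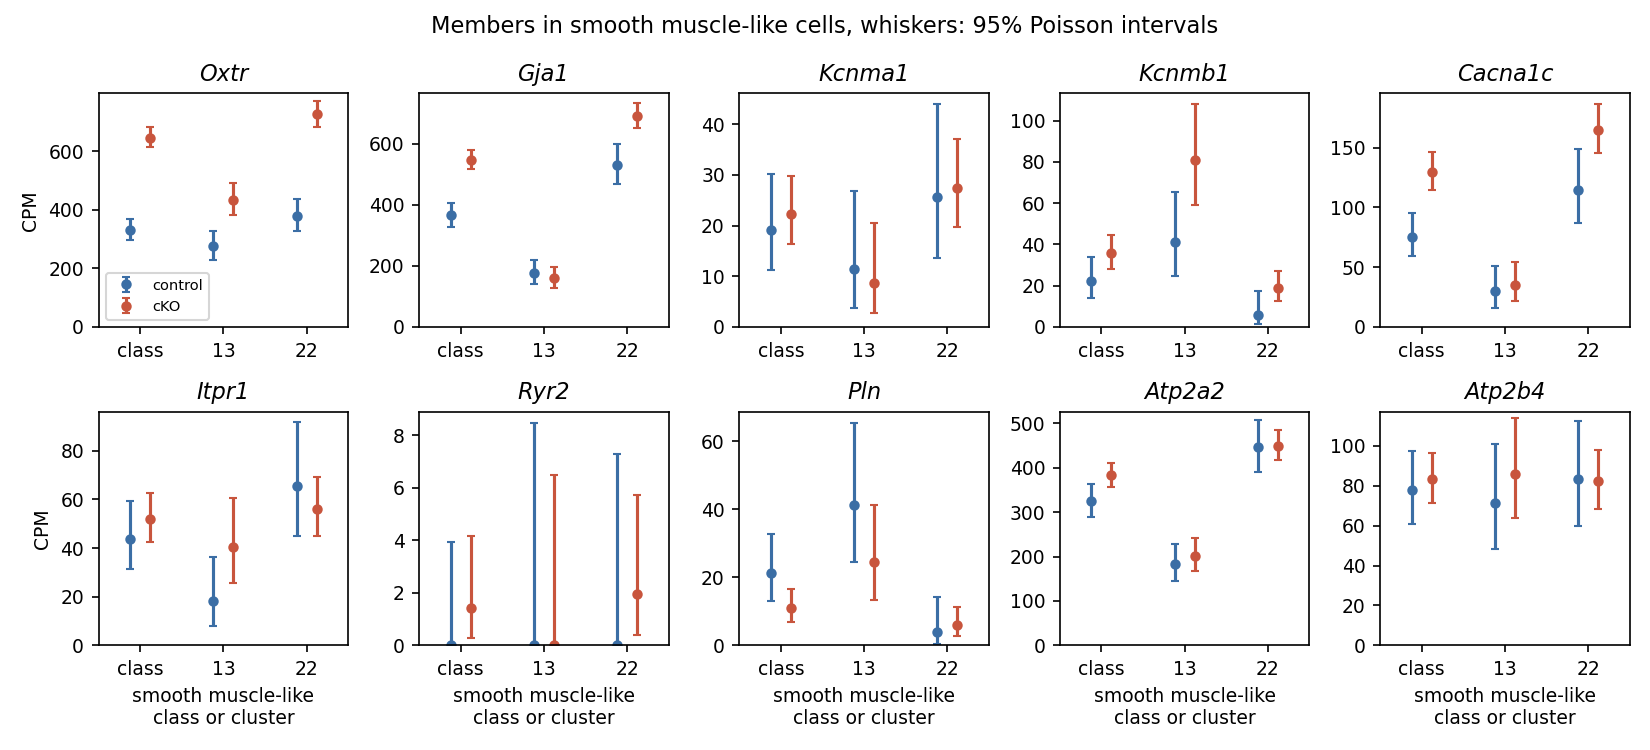
CPM of each member in the smooth muscle-like class and its clusters 13 and 22, for the control-labelled (blue) and cKO-labelled (red) libraries, with 95% Poisson intervals as whiskers and a separate vertical scale per gene. Oxtr is higher in the cKO-labelled library in both clusters; Kcnmb1 and Pln are highest in cluster 13, and Gja1, Cacna1c and Atp2a2 in cluster 22.

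The members were then read as a group on the scale log2((CPM + 5) of cKO over (CPM + 5) of control), which understates changes of low genes, and a gene was counted when it passed 1.5-fold. In smooth muscle-like cells 2 of the 9 members with at least 10 CPM, Oxtr (0.95) and Cacna1c (0.74), passed upwards, against 18.8% of 8663 genes. Pln (-0.72) passed downwards, against 8.36% of genes. The other 6 lay between 0.10 and 0.57, with Gja1 and Kcnmb1 both at 0.57, just inside the limit of 0.58. The median of the 9 was 0.23 and that of all genes 0.21, so the list stood at the middle of all genes. Scaling by the median of ratios in place of total UMIs lowered the median of all genes to 0.02, with 10.2% of genes then higher and 12.9% lower. On that scale Oxtr (0.77) and Pln (-0.86) still passed, Cacna1c (0.56) did not, and Atp2b4 changed sign (-0.08).

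The clusters gave the same picture with partly different genes. In cluster 13 Oxtr (0.64), Kcnmb1 (0.89) and Itpr1 (0.96) passed upwards among 9 members, where 23.5% of genes did, and Pln (-0.65) downwards, where 16.7% did. In cluster 22 Oxtr (0.93) and Kcnmb1 (1.13) passed upwards among 8 members, where 21.1% of genes did, and none downwards, where 7.19% did. Oxtr was the member that passed in the class and in both clusters with counting intervals clear of no change.

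**Figure D4:**
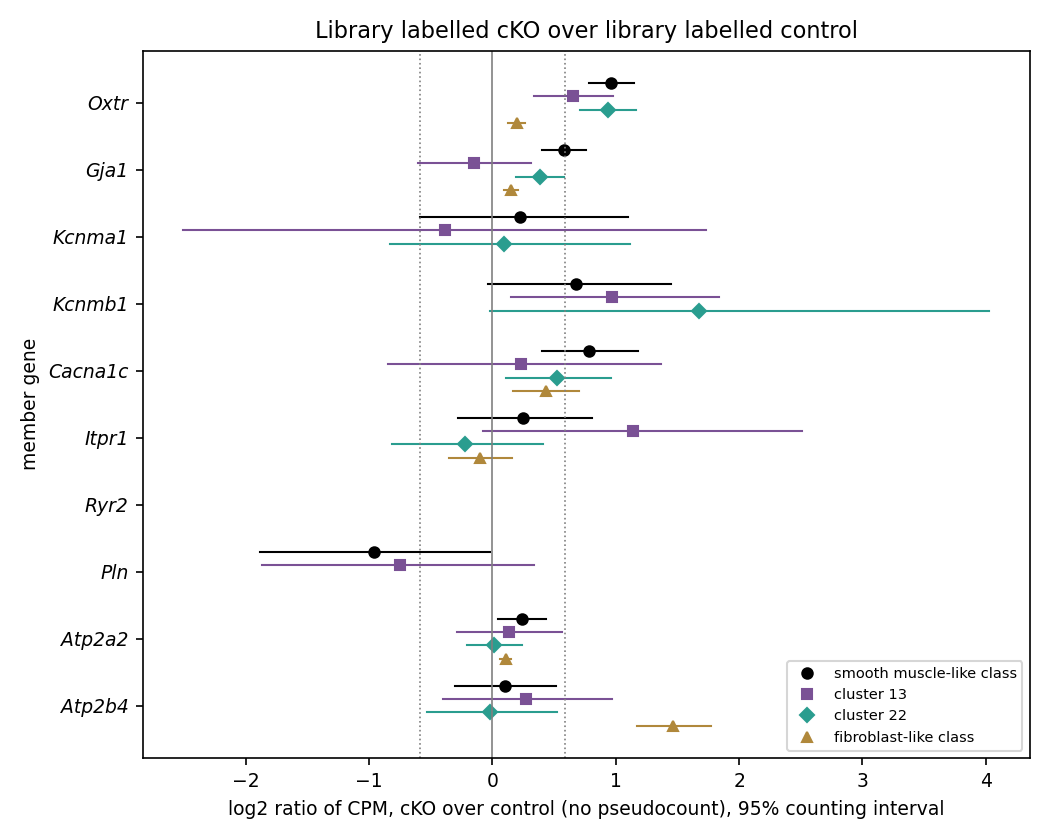
Log2 ratio of CPM without a pseudocount, the cKO-labelled library over the control-labelled library, for each member with at least 10 CPM in either library, with 95% counting intervals as lines and 1.5-fold as dotted lines. Oxtr lies to the right of 0 in all 4 groups of cells and farthest in smooth muscle-like cells, and Atp2b4 lies farthest right in fibroblast-like cells; Ryr2 has no value.

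Several other measures differed between the libraries in the same muscle cells. The contractile markers Acta2 (3007 and 1394 CPM), Actg2 (1344 and 455 CPM) and Tagln (3362 and 1922 CPM) were lower in the class of the cKO-labelled library, as were Des and Cnn1, while Smtn was higher (405 and 524 CPM) and the ratio interval of Myh11 included 1. The clusters differed in this. In cluster 13 the ratio was 0.525 for Acta2, 0.464 for Actg2 and 0.798 for Tagln. The intervals of Des (0.919 to 1.08) and Cnn1 (0.825 to 1.04) included 1 there. In cluster 22 Acta2 (1.48), Tagln (1.26), Des (1.17) and Cnn1 (2.68) were higher, and the interval of Actg2 included 1 (0.666 to 1.08). The 7 smooth muscle markers together summed to 20658 and 15039 CPM in cluster 13 and to 3087 and 3977 CPM in cluster 22. The 6 fibroblast markers summed to 1118 and 672 CPM in the class. Malat1, a nuclear RNA, took 1.62% and 0.416% of UMIs in cluster 13 and 10.0% and 5.50% in cluster 22, and the median mitochondrial share was 3.41% and 2.51% in cluster 13 and 1.32% and 1.16% in cluster 22. The 18 genes of the dissociation response, which rise during long digestions, took 2.90% and 1.60% of UMIs in cluster 22, and in the whole class Fos (-0.90) and Egr1 (-0.96) were lower. The part of these measures in the members' differences was not tested. RNA of empty droplets held Oxtr at 38.0 and 139 CPM, and at most 3.01% and 2.37% of UMIs in smooth muscle-like cells came from such RNA. After its subtraction the log2 ratio of Oxtr was 0.94.

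In fibroblast-like cells, of 6 members with at least 10 CPM, only Atp2b4 passed 1.5-fold upwards, against 5.49% of 8136 genes, and none passed downwards, against 2.86%. Atp2b4 had 113 UMIs (11.8 CPM) and 524 UMIs (32.5 CPM), a ratio of 2.77 (2.25 to 3.42), and 299 of those UMIs came from cluster 24. Without that cluster, which drew over 90% of its cells from 1 library, its log2 ratio was 0.55 in place of 1.16. Oxtr was at 250 and 287 CPM in the class, a ratio of 1.15 (1.09 to 1.2), below the interval of its ratio in smooth muscle-like cells. Without clusters drawn over 90% from 1 library its log2 ratio turned from 0.19 to -0.12. Cluster 7 alone had a ratio of 2.06 (1.65 to 2.60), inside the interval of muscle. The median log2 ratio of the 6 was 0.17, and that of all genes 0.10.

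The wider pathway was described with 7 lists of 107 genes, the members included, of which 64 reached 10 CPM in smooth muscle-like cells. Of these 12 were higher and 7 lower past 1.5-fold, and their median was 0.19. The share higher, 18.8%, equals that of all genes, and 8.36% of all genes were lower. The counts per list below stand against these same shares where total UMIs are the scale. Counts under median of ratios scaling stand against the shares of all genes on that scale, given above beside the members. Under median of ratios scaling 7 were higher and 10 lower, and 8 of the 64 changed sign, among them Gjb2, Kcnj8 and Atp2b4. In cluster 13 alone 8 of 61 were higher and 10 lower, where 23.5% and 16.7% of all genes were. In cluster 22 alone 16 of 63 were higher and 4 lower, where 21.1% and 7.19% of all genes were. Values below are of the class unless a cluster is named. Among receptors and Gq partners Oxtr was the 1 of 12 to pass. Rgs4 (0.51) and the endothelin receptor Ednra (0.49) had the next highest values, and Rgs2 (-0.12) and the angiotensin receptor Agtr1a (-0.42) the lowest. Each of these had opposite signs in clusters 13 and 22, with Rgs4 at 1.40 and -0.12 and Ednra at -0.17 and 0.94. Of the 3 connexins measured none passed, with Gjc1 at 0.46 and Gjb2 at 0.12. Gjb2 was negative in both clusters (-0.08 and -0.27).

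Potassium channel genes passed upwards in 2 of 8 cases. Kcne4, an accessory subunit, had 46.8 and 125 CPM (1.32), and none passed downwards. Kcnj8 (0.04) and Kcnh2 (-0.27) were the lowest, with Kcnj8 at -0.43 in cluster 13 and 0.72 in cluster 22. Calcium entry genes went both ways, with 4 of 11 higher and 2 lower, against 1 higher and 3 lower under median of ratios scaling. Neither cluster alone had 4 higher: 1 of 10 was higher and 2 lower in cluster 13, and 1 of 11 higher and 3 lower in cluster 22. These stand against the cluster shares above. The L-type beta subunit Cacnb2 (119 and 208 CPM, 0.78) was higher beside Cacna1c, and the T-type channel Cacna1h (-0.96) and another beta subunit, Cacnb3 (-1.04), were lower.

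Of 11 store genes 3 were higher (2 under median of ratios scaling) and 2 lower. In cluster 13 alone 2 of 9 were higher and 2 lower, and in cluster 22 alone 5 of 9 were higher and 0 lower, against the cluster shares above. The ryanodine receptor Ryr3 had 13 and 69 UMIs (1.01) and the pump Atp2a3 5 and 31 UMIs (0.94), while the calcium buffer Calr was at -0.01. In clusters 13 and 22 Ryr3 was at -0.04 and 1.03, and Calr at -0.55 and 0.18. Mrln, which encodes a SERCA inhibitor like Pln, had 10 and 6 UMIs (-0.99). Of 5 extrusion and sodium pump genes 2 were higher (1 under median of ratios scaling), among them the sodium-calcium exchanger Slc8a1 (85.1 and 142 CPM, 0.70). Atp2b1 was at 0.45 and Atp1b1 at -0.22. In clusters 13 and 22 Atp2b1 was at -0.27 and 0.29, and Atp1b1 at 0.06 and -0.54. Of 14 calmodulin, myosin kinase and cGMP genes none was higher and 3 lower (5 under median of ratios scaling), among them Calm3 (-0.96) and the myosin phosphatase inhibitor Ppp1r14a (-1.16), with Prkg1 (0.44) and Rock2 (0.37) the highest. In cluster 13 of the same 14 genes 1 was higher and 3 lower, and in cluster 22 1 was higher and 0 lower, against the cluster shares above. Calm3 was at -0.75 in cluster 13 and 0.43 in cluster 22, and Ppp1r14a at -1.15 and -0.47. Among the dissociation genes Ier3 (0.56) and Klf6 (0.18, with the other sign under median of ratios scaling) were the highest, and the list's median was -0.29, with 4 of 18 lower, against -0.48 and 7 under that scaling. Klf6 was at 0.53 in cluster 13 and -0.17 in cluster 22.

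**Figure D5:**
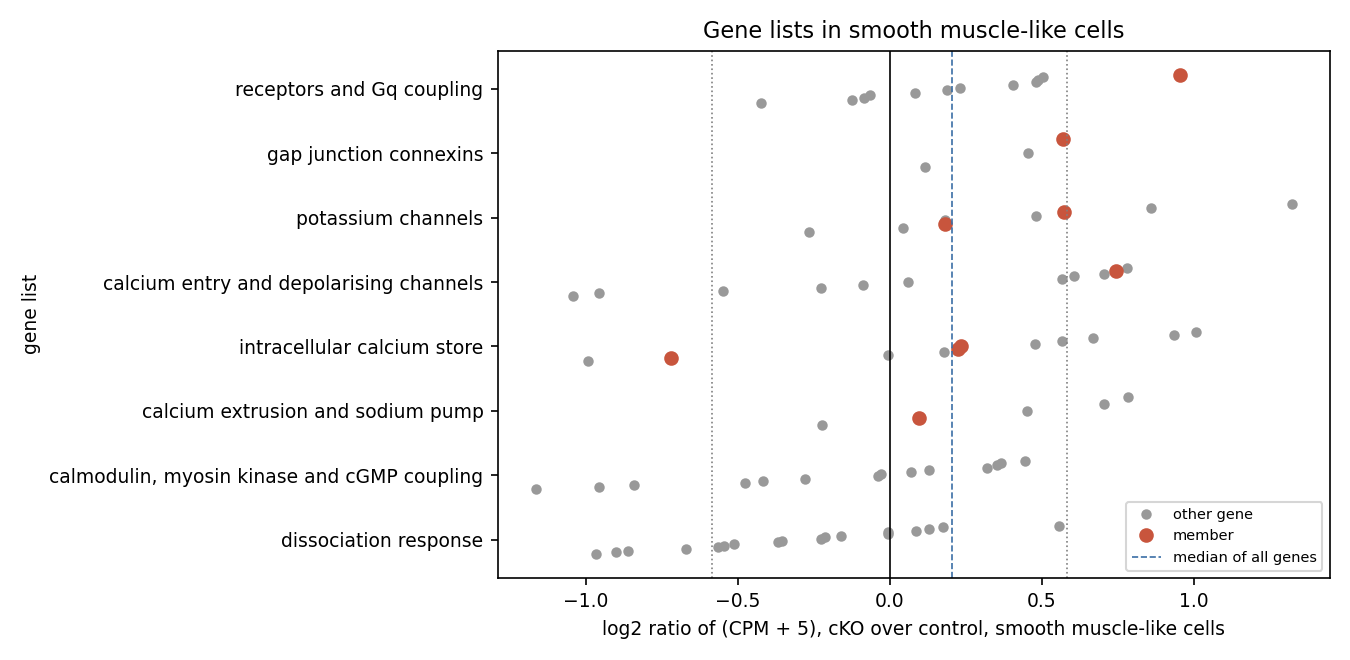
Log2 ratio of (CPM + 5), the cKO-labelled library over the control-labelled library, in smooth muscle-like cells, for each gene with at least 10 CPM in 7 pathway lists and the dissociation list; members are large red points, the dashed line is the median of all genes (0.21) and dotted lines are 1.5-fold. Members lie among the other genes of their lists, with Oxtr the highest of the receptors and Pln near the low end of the store genes.

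The genes whose levels most resembled each member over 15 points (a class in a library with at least 50 cells) were found by Pearson's r of log2(CPM + 5). The points share libraries and depth, so r is a description. Oxtr was closest to Ptpn5 (r = 0.97), Adcy5 (0.97) and Tnfaip8l3 (0.96). Gja1 was closest to Gspt1 (0.96), Smo (0.93) and Rassf8 (0.93). For the channel genes the nearest were Slc6a17, Cfap161 and Dpp6 (0.97 each) for Kcnma1, Nmur2 (0.99), Csrnp3 (0.99) and Akr1b7 (0.98) for Kcnmb1, and Foxs1 (0.99), Crispld1 (0.98) and Gli2 (0.98) for Cacna1c.

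Pln was closest to the smooth muscle actin Actg2 (r = 0.97), then Hectd2os (0.97) and Dpp6 (0.97). The widely expressed members had lower values: Son (0.89), Rnf215 (0.87) and Cdk12 (0.86) for Itpr1, Klhl21 (0.92), Abl2 (0.91) and Pttg1ip (0.91) for Atp2a2, and Wdtc1 (0.91), B9d2 (0.91) and Aamp (0.90) for Atp2b4. Ryr2 was too low for this comparison. Among the members themselves Kcnma1 and Kcnmb1 (0.94), Kcnmb1 and Pln (0.93), Kcnma1 and Pln (0.91) and Oxtr and Cacna1c (0.91) had the highest r over these points. Pln and its target pump Atp2a2 were at -0.01. Kcnma1, Kcnmb1 and Pln reached 10 CPM only in the smooth muscle-like points. Their high r, with each other and with the nearest genes named here, thus reflects muscle against all other points. It does not describe muscle itself, where the ratio between libraries was 1.60 for Kcnmb1 and 0.515 for Pln.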

How the data were processed

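The authors deposited unfiltered counts of UMIs per gene and barcode for each library, made with Cell Ranger 4, per the file headers; the submitters' processing notes name version 6.1.1 and the build mm10, which is GRCm38. Of the 32285 gene identifiers, 32235 (99.8%) are in GENCODE vM21. Counts carry no normalization and include empty droplets.

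Barcodes were kept as cells from 1000 UMIs and 500 genes upwards if mitochondrial UMIs did not exceed 20%. They were clustered jointly with scanpy 1.11.5 (Python 3.11.15, 2000 variable genes, 30 components, 15 neighbours, Leiden resolution 1), with the members and pathway lists kept out of the variable genes and without batch correction. A cluster was named X-like where at least 3 of a class's markers had a UMI in 25% of its cells and 2 times the median cluster. A limit on deep clusters holding 50% of another class's markers was amended after the clusters were seen. Before that change it left fibroblast-like cluster 5 unnamed. As amended it left cluster 20 unnamed, and cluster 14 had too few markers. Scrublet, with an expected doublet share of 5%, had not worked, so doublets remain; 4.53% and 8.90% of cells are in unnamed clusters.

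Raw UMIs were summed per class and library. Exact Poisson, conditional ratio and Clopper-Pearson intervals at 95% came from scipy 1.17.1, and the calculations were tested on simulated data. UMI intervals cover counting error only, not mice or preparations. Comparison was limited to classes of 100 or more cells in each library, a gene counted as past the fold at 1.5-fold with 5 CPM added, and genes under 10 CPM in both libraries were left out of counts.

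The members, the lists and the markers were chosen with earlier results of these data known. Named genes were all members, the 2 highest and 2 lowest other genes of each list in smooth muscle-like cells, and the 3 genes nearest to each member; some genes that the rule names are not reported here. Alternatives covered scaling, pseudocount, resolution, filters, thinning, free RNA, doublets and the choice of cells.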

Additional observations from a re-analysis of the deposited data

Results flagged for a closer look

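Oxtr and Gja1 passed 1.5-fold in opposite directions in different cell classes, with counting intervals clear of no change on each side; with 1 library per group the difference between classes was not tested. The log2 ratio of Oxtr, the cKO-labelled over the control-labelled library on the CPM + 5 scale, was 0.95 in smooth muscle-like cells, 1.03 in dendritic cell-like cells (13 and 43 UMIs) and -1.41 in macrophage or monocyte-like cells (65 and 9 UMIs). Those 65 UMIs lay in 7 of 298 cells and the 9 in 5 of 210 cells, so the share of cells with a UMI was 2.35% and 2.38%, and the counting interval does not cover the spread between so few cells. The log2 ratio of Gja1 was 1.49 in T or NK cell-like cells (16 and 112 UMIs), 0.74 in dendritic cell-like cells (44 and 95 UMIs) and -1.37 in epithelium-like cells (2109 and 54 UMIs). Epithelium-like cells numbered 1312 and 109 and included clusters drawn almost wholly from the control-labelled library. In the immune classes these levels lie below those of the same library's empty droplets, where Oxtr was at 38.0 and 139 CPM and Gja1 at 90.8 and 155 CPM; the part of free RNA in them was not tested.

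Empty droplets, barcodes with at most 100 UMIs that entered no comparison of cells, also held the members. Their CPM in the cKO-labelled library was 3.66 times that in the control-labelled library for Oxtr, 1.71 times for Gja1 and 16.9 times for Kcnma1 (1 and 12 UMIs, interval 2.5 to 721). It was 2.81 times for Kcnmb1, 2.19 times for Cacna1c, 1.67 times for Atp2a2 and 3.02 times for Atp2b4. These members were flagged for a ratio of at least 1.5 with an interval above 1. Itpr1 (1.23, 0.894 to 1.69) and Pln (1.27, 0.455 to 3.46) had intervals that included 1, and Ryr2 had 0 and 2 UMIs. Smooth muscle-like cells were 8.94% of cells in the control-labelled library and 19.0% in the cKO-labelled library. Fibroblast-like cells were 24.4% and 37.4%, and epithelium-like cells 37.6% and 3.04%. Over all cells the ratio was 2.75 for Oxtr, 1.69 for Gja1, 3.42 for Cacna1c, 1.22 for Itpr1, 1.52 for Atp2a2 and 3.05 for Atp2b4. The part of cell make-up in the empty-droplet ratios was not tested.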

How the results depend on the processing

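Under 15 alternatives, of which the 2 clusters taken alone were added after the data were examined, the log2 ratio of Oxtr in smooth muscle-like cells stayed between 0.64 and 1.04. The median of the members ranged from 0.05 to 0.68. The number of members higher past 1.5-fold, 2 of 9, became 1 under median of ratios scaling and 0 at a fold of 2. It became 5 among the 189 and 239 cells with at least 1% of UMIs on smooth muscle markers. The share of all genes past 1.5-fold in those cells is not given here, so the 5 is not a result about the members. The number lower, 1, became 0 as a mean within clusters, 0 in cluster 22 alone and 0 at a fold of 2. Pln was 0.28 in cluster 22 alone, from 2 and 9 UMIs. Kcnma1 was -1.64 among the cells chosen by marker UMIs. With cells thinned to 1000 UMIs Kcnmb1 was 1.46 and Atp2b4 0.63. Of 135 values of members in smooth muscle-like cells under alternatives, 117 lay within the counting interval of the value reported; the cause of the other shifts was not tested. In fibroblast-like cells the log2 ratio of Atp2b4 ranged from 0.39 to 1.39. Kcnma1, Kcnmb1 and Pln rest on 18 to 75 UMIs per library and Ryr2 on 0 and 3, which limits their precision. No paired analysis was possible because each group is 1 library.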
